A study of Mus musculus with 20 samples.

Results

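The Reelin pathway genes Reln, Dab1, Vldlr, Lrp8 and Apoe were followed in the retina of 20 C57BL/6J mice, an inbred laboratory strain. They were 5 of 35006 genes in the count tables, of which 26509 had at least 1 count. Reln had been singled out by its lower value in old than in young control mice. The other members were added by function: Vldlr and Lrp8 as the receptors, Dab1 as the adaptor, and Apoe as another ligand of the same receptor family. The contrast of old with young control mice is therefore described without a test for all 5 members.

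Each library held the retinal polyA RNA of 1 mouse. Young control mice (n = 4) were 119 days old. Young NACET mice (n = 6) were 129 days old in 4 cases and 119 days old in 2 cases by their titles, although the batch tag of 1 of these 2 (replicate 6) reads 129 days. Old control mice (n = 4) were 668 days old. Old NACET mice (n = 6) were 668, 581 and 574 days old, with 2 mice at each age. NACET, the ethyl ester of N-acetylcysteine, is a cysteine donor that crosses membranes more easily than N-acetylcysteine. Treated mice drank it for 5 days at a daily dose of 50 mg/kg, and control mice received none. All mice were of 1 strain, and the retinas were sampled whole, so that a lower value may reflect fewer cells of a type or less RNA per cell, which cannot be told apart.

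Reelin is a large secreted glycoprotein that binds the receptors VLDLR and APOER2, the latter encoded by Lrp8. Binding clusters the receptors, and kinases of the Src family then phosphorylate DAB1, an adaptor docked on the receptor tails. Reelin is best known for positioning neurons in the developing cortex. In the retina it is made by inner retinal neurons and takes part in the layering of synapses in the inner plexiform layer and in the wiring of the rod pathway through AII amacrine cells. APOE, the main lipid carrier made by glia, binds receptors of the same family.

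Both receptors hold in their cytoplasmic tail the NPxY signal on which DAB1 docks, and the coding stretch around it is shown because it is the feature that places Vldlr and Lrp8 in 1 pathway with Dab1. The sequences are the sense strand of the longest complete coding transcript of each gene in the GENCODE annotation of mm9, 48 bases each, written 5′ to 3′. Capitals mark the 6 codons of the signal (phenylalanine, any residue, asparagine, proline, any residue, tyrosine).
Vldlr: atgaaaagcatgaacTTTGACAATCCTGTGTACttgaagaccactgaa
Lrp8: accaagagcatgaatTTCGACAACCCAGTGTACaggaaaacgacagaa
The capitals lie in a coding exon of each gene, on the plus strand: for Vldlr at chr19:27322424-27322441, in exon 18 of 19 of the transcript, and for Lrp8 at chr4:107541660-107541677, in exon 18 of 21. The signal was found 1 time in each protein. Of its 18 bases, 15 were equal in the 2 genes, and of the whole stretch 36 of 48 were equal. The counts were made per gene, and no isoform could be read from them.

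In mm9, Reln spans 21390272 to 21850523 of chromosome 5 on the minus strand, and Dab1 spans 103291964 to 104417449 of chromosome 4 on the plus strand. Vldlr lies at 27290974 to 27328721 of chromosome 19 on the plus strand, and Lrp8 at 107474866 to 107549445 of chromosome 4 on the plus strand. Apoe lies at 20281458 to 20284515 of chromosome 7 on the minus strand. All 5 are protein coding. Counting did not use strand, and 246 exonic bases of Reln, 1.24% of its exons, lie under other annotated genes. The exons of the other 4 members share no base with another gene.

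The libraries held 1.77e+07 to 3.11e+07 gene counts, and the members had 633 (Dab1, young control replicate 1) to 16450 (Vldlr, old control replicate 2) counts per library. Every retinal marker list was detected: none of the genes in the lists for amacrine, ganglion, bipolar and horizontal cells, rods, cones and Müller glia was at 0 in any library. The summed level of 8 rod markers was 79166 to 95114 CPM (gene counts scaled to a library of 1e+06) in young controls, 75472 to 93441 CPM in young NACET mice, 69909 to 84300 CPM in old controls and 62799 to 75295 CPM in old NACET mice. Corneal epithelial markers exceeded 100 CPM in young NACET replicates 3, 4 and 5 and in old control replicate 2, and lens markers reached 10922 CPM in old NACET replicate 1. The study's methods describe males, whereas the labels give 4 of the young mice as female. Old control replicate 4, labelled male, had 59555 Xist counts against 5 to 15 in the other libraries labelled male and old. It had 1 count of Y-linked genes, where those others had 4800 to 7484. Results that rest on these libraries are given with and without them where they change.

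Within each library the order of the levels per length was the same. In RPKM, the CPM divided by the kilobases of annotated exons of the gene, Apoe averaged 204, Vldlr 50.2, Reln 11.1, Lrp8 7.23 and Dab1 5.33 over the 20 libraries. Each gene stood above the next in 20 of 20 libraries, both with this length and with that of the longest coding transcript. The ranges over libraries were apart for each neighbouring pair other than Lrp8 and Dab1, for which the lowest Lrp8 value was 5.31 and the highest Dab1 value 6.75 RPKM. The lowest Reln value, 9.10 RPKM, was only just above the highest Lrp8 value, 8.56 RPKM. Of the 2 receptors, Vldlr was the more abundant per length, by 5.65 to 9.55 times within a library. In CPM, Vldlr ranked 196, Apoe 275, Reln 720, Lrp8 2958 and Dab1 5130 among the 26509 genes with a count.

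**Figure D1:**
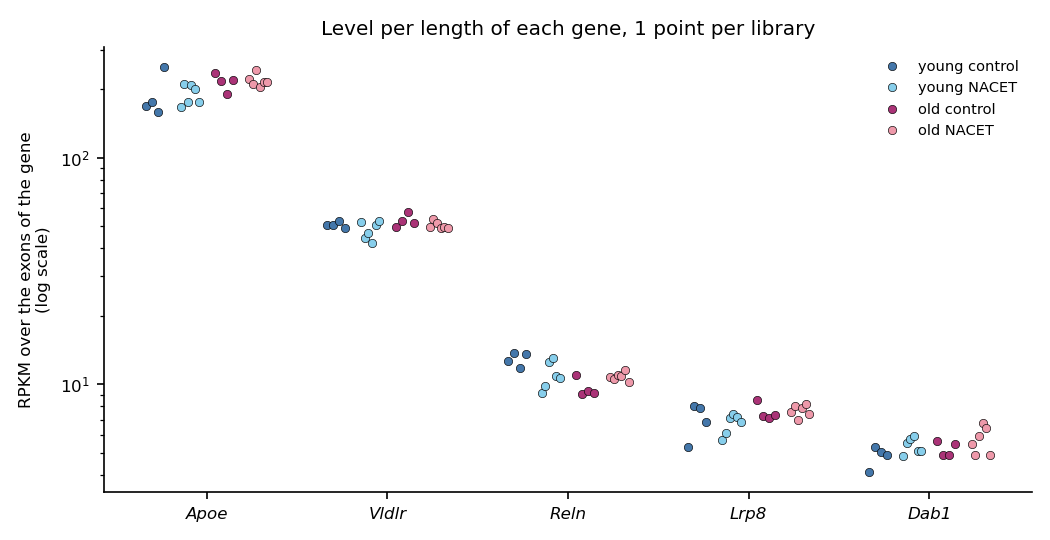
RPKM of each member over its annotated exons (log scale), 1 point per library, with the 4 groups side by side in colour. The order from Apoe to Dab1 holds in 20 of 20 libraries, and the point clouds of Lrp8 and Dab1 overlap between libraries.

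Reln, the ligand, was the member whose level differed most between groups. The young control libraries held 252.9, 272.0, 233.5 and 269.4 CPM (256.9 ± 17.8, SD, n = 4), and old controls 218.2, 180.6, 185.5 and 181.7 CPM (191.5 ± 17.9, n = 4). Every old control library was below every young control library, and old control replicate 1 stood above the other 3 of its group. The share of all genes whose groups do not overlap was not counted, here or for the genes named below. The log2 difference of old from young controls was -0.47 (SE 0.065), which is the value that chose the gene and carries no test here. It lay between -0.51 and -0.45 when each library was left out in turn. It was -0.51 in the libraries labelled male, -0.49 in libraries with at most 100 Xist counts and -0.45 without the library with corneal markers. These fits reuse the libraries that chose the gene, so they only describe the difference.

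In NACET mice Reln did not separate the ages. The 6 young NACET libraries ranged from 182.5 to 260.4 CPM with a median of 214.1 CPM, and the 6 old NACET libraries from 203.8 to 229.3 CPM with a median of 214.4 CPM. The old libraries all lay within the range of the young ones. Every old NACET library was also below every young control library, with 229.3 CPM as the highest and 233.5 CPM as the lowest value. Young controls are among the libraries that chose Reln. The mean was 219.5 ± 30.4 CPM in young and 214.9 ± 8.70 CPM in old NACET mice, so the coefficient of variation was 13.8% and 4.05%. These 12 libraries were not used in the choice of Reln, and the log2 change of old from young NACET mice was -0.075 (SE 0.061, 95% interval -0.20 to 0.054), which did not pass the threshold (edgeR adjusted p = 0.515).

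The 2 highest young NACET values, 260.4 CPM in replicate 4 and 250.3 CPM in replicate 3, came from libraries with corneal markers. Without all 5 libraries with over 100 CPM of corneal or lens markers, a setting chosen after seeing the data, the log2 change of Reln with age under NACET was 0.043 (adjusted p = 0.729). Neither fit called the gene. The part of corneal or lens tissue in these values was not tested.

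For old NACET against old control mice, Reln had a log2 change of 0.16 (SE 0.051, 95% interval 0.052 to 0.27), which did not pass the threshold (edgeR adjusted p = 0.163). Only old control replicate 1, at 218.2 CPM, overlapped the 6 old NACET libraries, and the other 3 controls were below all of them. Without that library the change was 0.21 (adjusted p = 0.0705), and with DESeq2, the tool of the study, it was 0.16 with an adjusted p of 0.0459. The call therefore depended on the tool. This comparison shares its control libraries with the one that chose Reln, and 4 of the 6 old NACET mice were 581 or 574 days old against 668 days for the controls. Among 668-day libraries only, with 2 NACET mice, the change was 0.14 (adjusted p = 0.668).

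For young NACET against young control mice, Reln had a log2 change of -0.24 (SE 0.076, 95% interval -0.41 to -0.079). It did not pass the threshold (edgeR adjusted p = 1.00), as for every other gene in this comparison. Young controls are again the libraries whose high values chose the gene. Young NACET replicates 3 and 4 overlapped the controls, and the other 4 libraries, at 182.5, 195.8, 216.5 and 211.8 CPM, were below all of them. The change was -0.35 without the libraries with corneal markers (adjusted p = 0.990) and -0.27 in libraries labelled male (adjusted p = 1.00).

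The log2 changes of Reln with NACET thus had opposite signs at the 2 ages, and neither passed the threshold. Their difference was 0.40 on the log2 scale (SE 0.094), given as a description because the age contrast in controls is contained in it. In 20 fits that each left out 1 library it lay between 0.36 and 0.45, and without the 5 libraries with corneal or lens markers it was 0.49. These fits hold the same controls and are likewise a description.

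**Figure D2:**
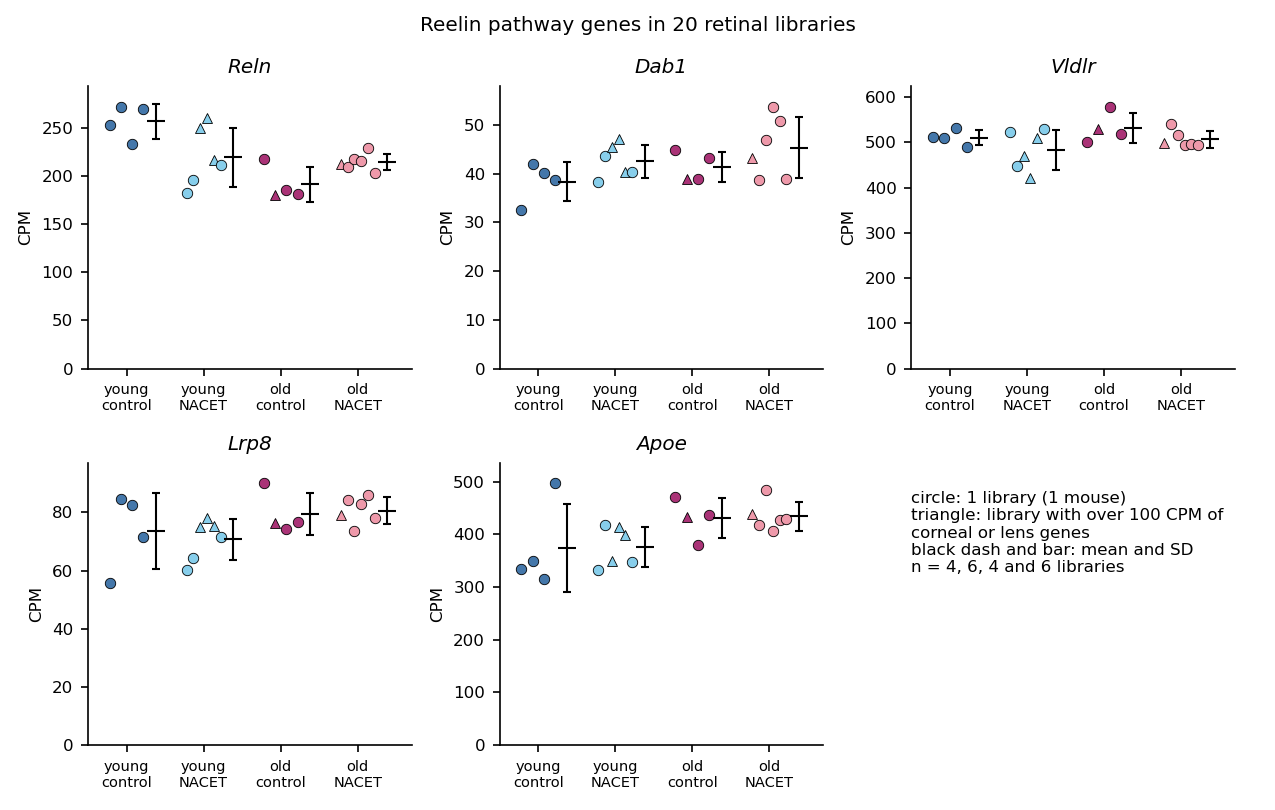
CPM of the 5 members in each library, with 1 panel per gene, the 4 groups on the horizontal axis, and the mean and SD of each group in black. Triangles are the libraries with over 100 CPM of corneal or lens genes. The Reln points of the old control and the old NACET group lie below those of the young control group, whereas the groups of the other 4 genes overlap.

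Dab1, which carries the signal inside the cell, was the least abundant member per length. It stood at 32.6, 42.1, 40.2 and 38.7 CPM in young controls and at 44.9, 38.9, 38.9 and 43.3 CPM in old controls. Young NACET libraries ranged from 38.4 to 47.0 CPM (median 42.1), and old NACET libraries from 38.7 to 53.7 CPM (median 45.0). All 4 groups overlapped, with the lowest value in young control replicate 1 and the highest in old NACET replicate 4. None of its changes passed the threshold: the log2 change was 0.045 with age under NACET (95% interval -0.11 to 0.20, adjusted p = 0.774), 0.12 with NACET in old mice (-0.058 to 0.30, adjusted p = 0.543) and 0.14 with NACET in young mice (-0.011 to 0.28, adjusted p = 1.00). In control mice it was 0.063 with age, as a description, and 0.0042 without young control replicate 1.

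Vldlr, the more abundant receptor, varied least of the members, with a coefficient of variation of 6.62% over the 20 libraries against 11.2% to 13.1% for the others. It stood at 511.0, 509.4, 531.5 and 490.7 CPM in young controls and at 500.2, 529.2, 578.5 and 518.0 CPM in old controls. Young NACET libraries ranged from 422.4 to 528.9 CPM (median 489.6), and old NACET libraries from 493.9 to 540.1 CPM (median 497.7). The 3 lowest values, 422.4, 446.9 and 469.2 CPM, were all young NACET, in replicates 4, 2 and 3. The log2 change was 0.015 with age under NACET (95% interval -0.13 to 0.16, adjusted p = 0.928), -0.077 with NACET in old mice (-0.20 to 0.042, adjusted p = 0.562) and -0.087 with NACET in young mice (-0.28 to 0.10, adjusted p = 1.00). The intervals leave room for changes of up to 0.28 in size on the log2 scale. In control mice it was 0.0095 with age, and between -0.036 and 0.063 when each library was left out.

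Lrp8, the gene of APOER2, stood at 55.9, 84.5, 82.5 and 71.6 CPM in young controls and at 90.0, 76.4, 74.4 and 76.8 CPM in old controls. Young NACET libraries ranged from 60.1 to 78.1 CPM (median 73.2), and old NACET libraries from 73.6 to 85.9 CPM (median 80.9). The lowest values were in young libraries and the groups overlapped. With age under NACET the log2 change was 0.14 (SE 0.053, 95% interval 0.031 to 0.25), which did not pass the threshold (adjusted p = 0.131), and it stayed between 0.11 and 0.16 when each library was left out. With NACET it was 0.016 in old mice (-0.091 to 0.12, adjusted p = 0.926) and -0.070 in young mice (-0.27 to 0.13, adjusted p = 1.00). With age in controls it was 0.060, and it turned to -0.040 without young control replicate 1, the lowest library.

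Apoe stood at 334.3, 349.1, 314.7 and 496.4 CPM in young controls and at 470.4, 433.3, 378.7 and 437.2 CPM in old controls. Young NACET libraries ranged from 332.0 to 418.0 CPM (median 373.4), and old NACET libraries from 406.3 to 483.5 CPM (median 428.1). Young control replicate 4 was the highest of all 20 libraries, and the log2 difference with age in controls, 0.16 over all libraries, was 0.31 without it and 0.084 without young control replicate 3. Under NACET, 2 of 6 young libraries, at 414.6 and 418.0 CPM, overlapped the old ones, and the log2 change was 0.16 (SE 0.063, 95% interval 0.025 to 0.29), which did not pass the threshold (adjusted p = 0.161). The change with NACET was 0.0067 in old mice (-0.13 to 0.14, adjusted p = 0.978) and -5.27e-05 in young mice (-0.24 to 0.24, adjusted p = 1.00).

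Counted over the members, 0 of 5 passed the threshold with age in NACET mice, where 4.88% of 16276 genes tested did (2.24% higher and 2.64% lower). By unadjusted p under 0.05 they were 2 of 5, Lrp8 and Apoe, beside 21.1% of all genes. With NACET in old mice 0 of 5 passed, beside 0.543% of 16562 genes (0.26% higher and 0.284% lower), with 1 of 5, Reln, at an unadjusted p under 0.05 beside 14.4% of all genes. With NACET in young mice 0 of 5 passed, where 0% of 16588 genes were called by edgeR and 0 by DESeq2, and 1 of 5, again Reln, had an unadjusted p under 0.05 beside 4.36% of all genes. DESeq2 called 0, 1 and 0 of the 5 members in these comparisons, the 1 being Reln, beside 1312, 373 and 0 genes in all. Both NACET comparisons contain the control libraries whose Reln values chose the gene, so its p-values there are not independent of the choice. For the difference of the NACET change between ages, Dab1, Vldlr, Lrp8 and Apoe had log2 values of -0.017, 0.0056, 0.082 and 0.0034, with adjusted p-values of 0.998, 0.999, 0.972 and 0.999. No gene of 16993 was called there by edgeR, 0% in all, with 6.19% at an unadjusted p under 0.05, and 88 genes by DESeq2. With age in controls, the contrast behind the choice of Reln, 1.42% of 16484 genes were called (1.09% higher and 0.328% lower) and 16.3% had an unadjusted p under 0.05. The median log2 change over all genes tested was between -0.0068 and 0.0065 in these comparisons.

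**Figure D3:**
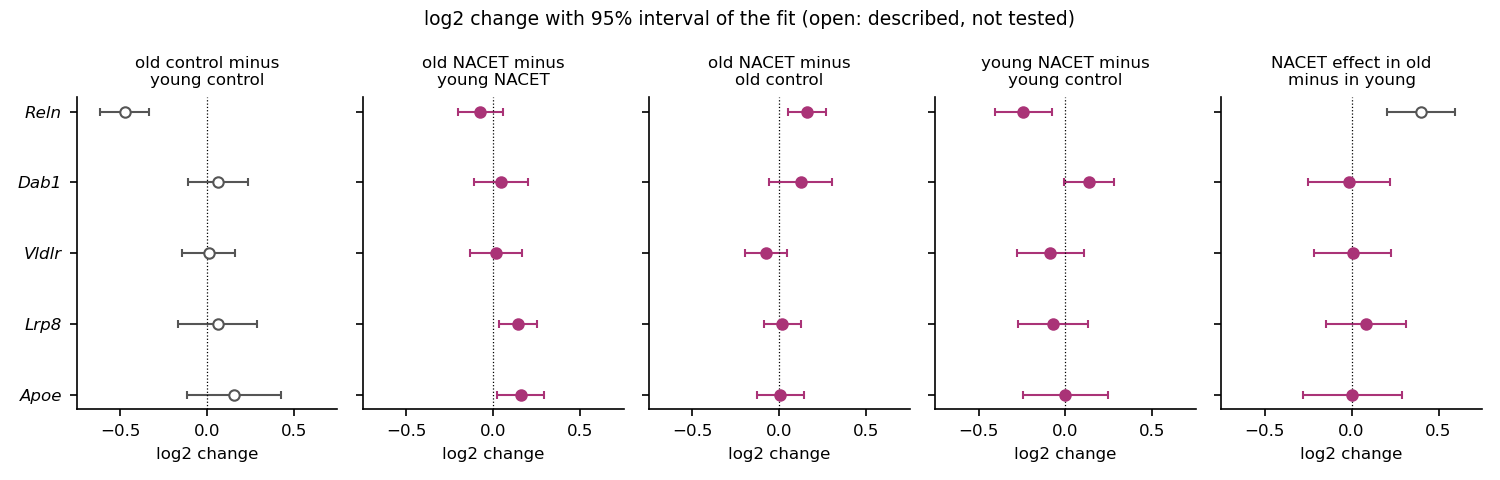
log2 change of each member, with the 95% interval of the edgeR fit, in the 5 comparisons. Open points are described and not tested, because the choice of Reln used that contrast. The Reln point is at -0.47 with age in controls and at -0.075 with age in NACET mice, and the intervals of Vldlr and of Dab1 include 0 in all 5 panels.

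Ratios between members compare them within a library. Per length, the ratio of Reln to Dab1 was 2.33 to 3.11 in young controls, 1.79 to 2.22 in young NACET mice, 1.68 to 1.95 in old controls and 1.61 to 2.16 in old NACET mice. The ratio of Apoe to Reln was 12.9 to 18.5 in young controls, 13.9 to 21.4 in young NACET mice, 20.5 to 24.1 in old controls and 18.7 to 22.2 in old NACET mice. The old control range did not overlap the young control range for either ratio. For Reln to Dab1, the young control range lay above that of every other group. For Apoe to Reln, it lay below the ranges of old controls and old NACET mice and overlapped that of young NACET mice. Reln, whose value in the control groups led to its choice, enters both ratios. The ratio of Vldlr to Lrp8, which does not hold Reln, overlapped between all groups.

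Over the 20 libraries, the members did not rise and fall as a unit. The highest Pearson r between 2 members on the log2 CPM scale was 0.56 (Dab1 and Lrp8), and the lowest was -0.44 (Reln and Vldlr, and Dab1 and Vldlr). Within groups, on deviations from the group means, Reln had an r of 0.52 with Dab1, 0.54 with Lrp8 and -0.56 with Vldlr. These are descriptions: the points share depth and the cell makeup of a library.

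The summed markers of retinal cell types moved with some members. Dab1 had an r of 0.78 with Müller glial, 0.75 with amacrine and 0.66 with AII amacrine markers, and -0.68 with rod markers. Apoe had an r of 0.76 with microglial and 0.57 with astrocyte markers. Lrp8 had an r of 0.75 with AII amacrine, 0.735 with bipolar, 0.64 with Müller glial and 0.62 with endothelial and pericyte markers. With rod and cone markers Lrp8 had an r of -0.75 and -0.62. Within groups the highest r of Lrp8 was 0.80, with Müller glial markers. Vldlr had an r of -0.67 with amacrine and -0.62 with ganglion cell markers. Reln had an r of 0.39 with amacrine markers and 0.37 with ganglion cell markers over all libraries. Within groups its r was 0.61 with amacrine and 0.59 with endothelial and pericyte markers, and -0.71 with rod markers. It was 0.44 with horizontal cell, 0.43 with Müller glial and 0.42 with AII amacrine markers.

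Beside the lower Reln of old controls, the amacrine markers summed to 1462 to 1703 CPM in young and 1428 to 1671 CPM in old controls, with 6 of 11 genes above 0 on the log2 scale and 0 called. The ganglion cell markers summed to 887 to 1168 CPM in young and 822 to 1075 CPM in old controls. All 8 of them had a log2 change below 0 (median -0.26) and 0 were called. Of the 8, 4 had an unadjusted p under 0.05, beside 16.3% of all genes. In old NACET against old control mice, 11 of 11 amacrine markers were above 0 (median 0.16) and 0 were called. Of these, 6 had an unadjusted p under 0.05, beside 14.4% of all genes in this comparison. With NACET in young mice, where the Reln change had the opposite sign, 11 of 11 amacrine markers were also above 0 (median 0.069). There 0 were called and 0 had an unadjusted p under 0.05, beside 4.36% of all genes. The ganglion cell markers, at 899 to 1216 CPM in old NACET mice, had 8 of 8 above 0 against old controls (median 0.17, 2 at an unadjusted p under 0.05) and 0 called. With NACET in young mice 3 of 8 were above 0 (median -0.012) and 0 were called. For the difference of the NACET change between ages 7 of 8 were above 0 (median 0.18, 0 at an unadjusted p under 0.05). The NACET comparison in old mice and this difference hold the same old controls as the age contrast in controls. Their signs are therefore not independent of the signs with age. Pigment epithelial markers had 0 of 8 above 0 in old NACET against old control mice (median -0.73, 6 at an unadjusted p under 0.05) and 0 called. The part of these cells in the Reln values was not tested.

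The genes whose pattern over the 20 libraries was most like that of a member were ranked by Pearson r on log2 CPM among 11989 genes with a mean of at least 5 CPM. For Reln they were Disp2 (r = 0.86), Ptk7 (0.85), Ank3 (0.83), Sv2c (0.83) and Atmin (0.83). Ank3 encodes ankyrin-G, a scaffold of the axon initial segment, and Sv2c a glycoprotein of synaptic vesicles. Ptk7 encodes a receptor pseudokinase of planar cell polarity. On deviations from the group means the r of these 5 ranged from 0.32 (Atmin) to 0.77 (Ptk7), and 0 of the 5 were still among the first 5.

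For Dab1 the first 3 were Fam115a (0.80), Plce1 (0.79) and Gad1 (0.78), the last an enzyme of GABA synthesis that also stands in the amacrine list. For Vldlr they were Plekha8 (0.90), Ddx6 (0.90), an RNA helicase of P-bodies, and Otud7b (0.89), a deubiquitinase. For Lrp8 they were Ddx55 (0.89), Zmym3 (0.88) and Tmem63c (0.88). For Apoe they were Tmem176b (0.89), Nbl1 (0.86) and Ddr2 (0.84), a collagen receptor. On deviations from the group means, 0 of these 3 remained among the first 3 for Dab1, 1 for Vldlr, 0 for Lrp8 and 1 for Apoe. By Spearman's rho, 3 of 5 remained for Reln, 1 of 3 for Dab1, 1 for Vldlr, 0 for Lrp8 and 2 for Apoe.

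Beyond the members, 86 genes of the pathway were grouped by role in 8 lists, and 84 of them passed the expression filter. In old against young controls 1 of 84 was called, 1.19%, beside 1.42% of all genes. Of the 84, 32 were above 0 and the median log2 change was -0.034. In old against young NACET mice 7 of 84 were called, 8.33%, beside 4.88% of all genes, with 5 higher and 2 lower and a median of -0.0083. With NACET, 0 of 84 were called in old mice, beside 0.543% of all genes, with 8 at an unadjusted p under 0.05, beside 14.4% of all genes. In young mice 0 of 84 were called, beside 0% of all genes, with 3 at an unadjusted p under 0.05, beside 4.36% of all genes, and DESeq2 called 0 in each. The lists were chosen by function with earlier results known, and the counts describe them.

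**Figure D4:**
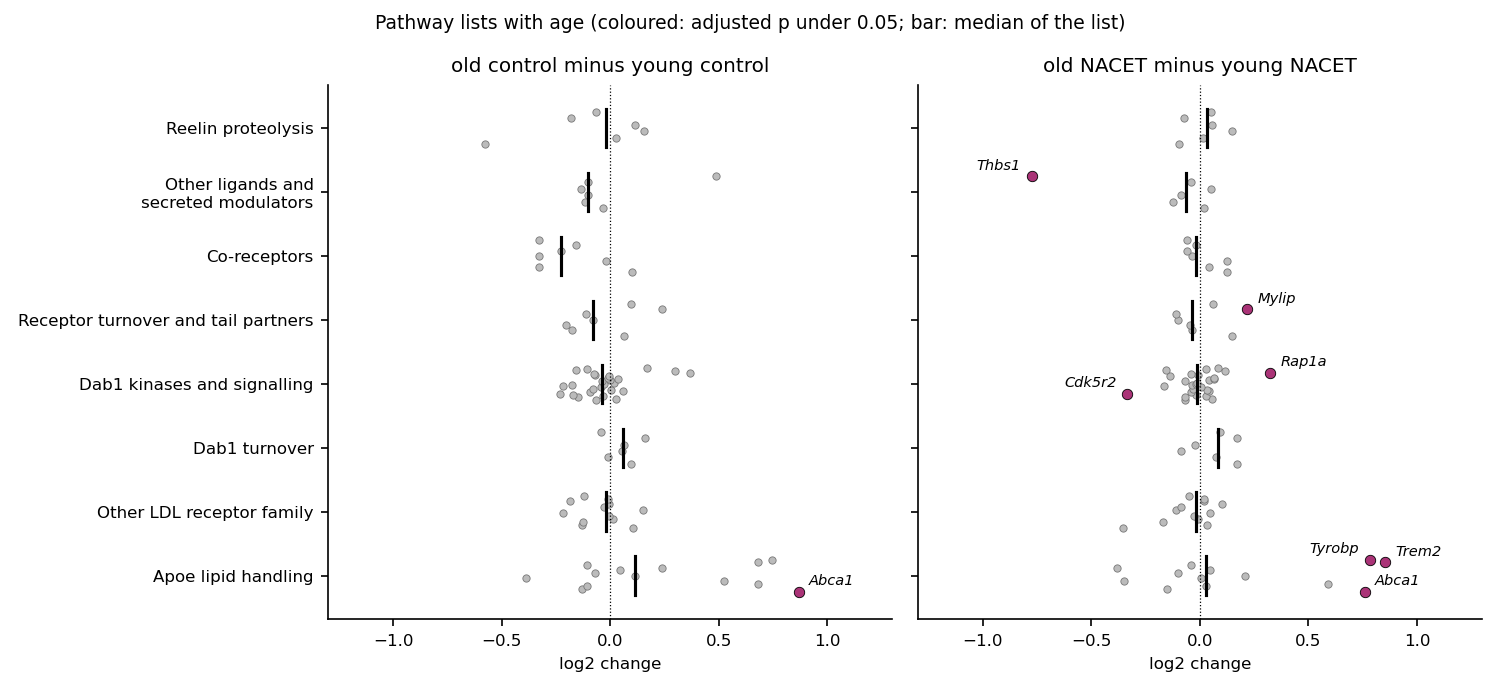
log2 change of 84 pathway genes with age in control mice (left) and in NACET mice (right), by list, with the median of each list as a black bar. Coloured and named genes had an adjusted p under 0.05: 1 on the left, and 5 higher and 2 lower on the right.

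The list of Apoe lipid handling held the 1 call with age in controls and 3 of the 7 calls with age in NACET mice. Abca1, the transporter that loads lipid on APOE, held 80.8, 89.3, 79.5 and 58.6 CPM in young controls and 125.9, 179.2, 164.2 and 112.2 CPM in old controls. It ranged from 61.8 to 77.2 CPM in young NACET mice and from 107.5 to 147.3 CPM in old NACET mice. Every old library was above every young one. The log2 change was 0.87 with age in controls (SE 0.16, adjusted p = 0.0198) and 0.76 with age in NACET mice (SE 0.086, adjusted p = 6.12e-05).

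The call in NACET mice held in all 12 fits that left out 1 library, and without the libraries with corneal or lens markers, where the change was 0.60 (adjusted p = 0.00181). In controls it was lost without old control replicate 2, the library with corneal markers and the highest Abca1 value, where the change was 0.74 (adjusted p = 0.0510). It was also lost without old control replicate 3 (adjusted p = 0.0791), among libraries labelled male (0.72, adjusted p = 0.134) and among those with at most 100 Xist counts (0.82, adjusted p = 0.0516). With NACET in old mice Abca1 had a log2 change of -0.27 (95% interval -0.53 to -0.0086, adjusted p = 0.331).

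Trem2, a microglial receptor that binds APOE and other lipids, and Tyrobp, its signalling partner, were at low levels. Trem2 ranged from 1.25 to 2.04 CPM in young and from 2.34 to 3.58 CPM in old NACET mice, with no overlap (log2 change 0.85, SE 0.15, adjusted p = 0.00357). Tyrobp ranged from 0.808 to 1.68 CPM in young and from 1.92 to 2.91 CPM in old NACET mice, also with no overlap (log2 change 0.78, SE 0.18, adjusted p = 0.0204). The call for Trem2 held in all 12 fits that left out 1 library, and that for Tyrobp in 10, with adjusted p-values of 0.0504 without old NACET replicate 1 and 0.0560 without old NACET replicate 2. In controls the changes with age were 0.68 for Trem2 (adjusted p = 0.133) and 0.74 for Tyrobp (adjusted p = 0.0937).

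The microglial marker list moved with these 2 genes. Its 8 genes summed to 22.6 to 37.6 CPM in young and 34.9 to 44.0 CPM in old NACET mice, and 7 of 8 were above 0. In old NACET mice 4 (Cx3cr1, Tmem119, C1qa and C1qb) were called higher, beside 2.24% of all genes. The eighth, Itgam, had a log2 change of -0.45 (adjusted p = 0.417). In controls the sums were 23.3 to 34.0 CPM in young and 35.8 to 42.9 CPM in old mice, with 8 of 8 genes above 0 and 0 called. The part of microglial number in the values of Trem2 and Tyrobp was not tested.

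Another 4 genes were called with age in NACET mice. Mylip, the ubiquitin ligase that sends VLDLR, APOER2 and the LDL receptor to degradation, ranged from 30.5 to 37.9 CPM in young and from 38.3 to 43.4 CPM in old NACET mice without overlap (log2 change 0.22, SE 0.060, adjusted p = 0.0472). In controls it ranged from 33.7 to 36.2 CPM in young and from 40.2 to 44.8 CPM in old mice, also without overlap, and its log2 change of 0.24 did not pass the threshold (adjusted p = 0.0753). The call in NACET mice held in 3 of 12 fits that left out 1 library, with adjusted p-values of 0.0344 to 0.106. It was lost with no filter on low counts (adjusted p = 0.0552) and without the libraries with corneal or lens markers (0.16, adjusted p = 0.150).

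Rap1a, a small GTPase that acts below DAB1 through CRK proteins, had a log2 change of 0.32 with age in NACET mice (SE 0.085, adjusted p = 0.0374). It ranged from 13.7 to 18.1 CPM in young and from 18.0 to 23.2 CPM in old NACET mice, and young NACET replicate 6 overlapped the old libraries. The highest value was that of old NACET replicate 1, the library with lens markers. Without the libraries with corneal or lens markers the change was 0.17 (adjusted p = 0.280), and the call held in 2 of 12 fits that left out 1 library, with adjusted p-values of 0.00875 to 0.0794. In controls the change was 0.37 (adjusted p = 0.104).

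Cdk5r2, which encodes the p39 activator of CDK5, a kinase that acts in parallel to Reelin signalling, fell with age in NACET mice, from 108.0 to 137.8 CPM in young to 94.0 to 107.1 CPM in old libraries (log2 change -0.33, SE 0.071, adjusted p = 0.0114). The groups did not overlap, and the call held in all 12 fits that left out 1 library. In controls, 117.8 to 125.1 CPM in young and 101.4 to 112.4 CPM in old mice also did not overlap, with a log2 change of -0.23 (adjusted p = 0.0753).

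Thbs1 encodes thrombospondin 1, a secreted protein that binds both Reelin receptors. It fell with age in NACET mice, with a range of 4.66 to 9.62 CPM in young and of 2.59 to 6.67 CPM in old libraries, which overlapped (log2 change -0.78, SE 0.21, adjusted p = 0.0449). In controls it had the opposite sign, with a log2 change of 0.49 (adjusted p = 0.533). The call held in 3 of 12 fits that left out 1 library, with adjusted p-values of 0.0116 to 0.0813. It was lost in the libraries labelled male, which here are also those with at most 100 Xist counts (-0.62, adjusted p = 0.135), in the fit of all 4 groups (-0.78, adjusted p = 0.104) and without the libraries with corneal or lens markers (-0.81, adjusted p = 0.0539).

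Markers of the retinal pigment epithelium, the layer behind the photoreceptors, moved with Thbs1. With age in NACET mice 0 of 8 of them were above 0 (median log2 change -0.72) and 3 were called lower, beside 2.64% of all genes. In controls 6 of 8 were above 0 (median 0.61) and 0 were called, with 2 at an unadjusted p under 0.05, beside 16.3% of all genes. Their sum was 60.9 to 161.7 CPM in young controls, 101.9 to 159.4 CPM in young NACET mice, 102.0 to 174.2 CPM in old controls and 45.3 to 101.6 CPM in old NACET mice. None of the 8 genes was at 0 in any library. The highest sums, in old control replicate 2 and young control replicate 4, were those of the libraries with the highest Thbs1 values, 11.1 and 10.0 CPM, and the lowest sum was that of old NACET replicate 3, with the lowest Thbs1 value, 2.59 CPM. The part of pigment epithelium in the Thbs1 values was not tested.

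**Figure D5:**
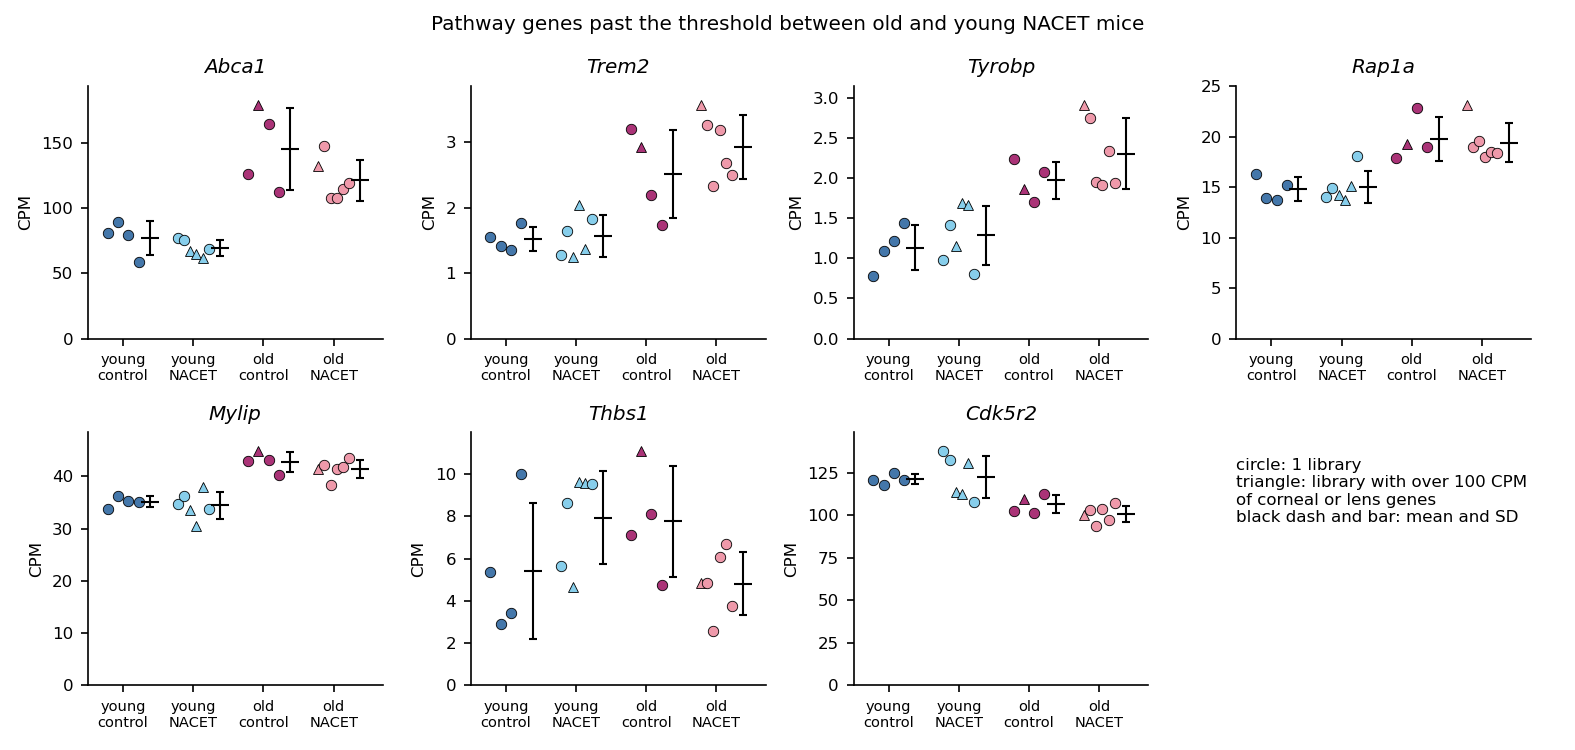
CPM in each library of the 7 pathway genes past the threshold between old and young NACET mice, with the mean and SD of each group in black and triangles for the libraries with over 100 CPM of corneal or lens genes. Abca1, Mylip and Tyrobp are higher in every old library than in every young library, Tyrobp by a narrow gap. Cdk5r2 does not overlap between the ages in either treatment, and the groups of Thbs1 overlap.

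The 4 remaining lists had no call. Among the proteases that cleave Reelin, 0 of 6 were called in any comparison. By unadjusted p under 0.05 they were 2 with age in controls, beside 16.3% of all genes, and 0 elsewhere. Furin, a proprotein convertase, had a log2 change of -0.18 with age in controls (adjusted p = 0.178), and Adamts2 of -0.58 (adjusted p = 0.217) at a mean of 1.43 ± 0.379 CPM in young and 0.994 ± 0.0914 CPM in old controls. With age in controls, 0 of 7 co-receptor genes were called and 1 of 7 was above 0 (median -0.23). Of them, 2 had an unadjusted p under 0.05, beside 16.3% of all genes. Nrp1, a receptor of semaphorins that also binds VLDLR, had a log2 change of -0.33 there (adjusted p = 0.0905), at 12.1 to 13.0 CPM in young and 9.46 to 12.1 CPM in old mice. Ephb2, an ephrin receptor that Reelin binds, had a log2 change of -0.33 (adjusted p = 0.107). With DESeq2 both passed, with adjusted p-values of 0.0376 for Nrp1 and 0.0189 for Ephb2.

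With NACET in old mice, 7 of 7 co-receptor genes were above 0 (median 0.11) and 0 were called. An unadjusted p under 0.05 was found for 1, beside 14.4% of all genes. In the difference of the NACET change between ages 7 of 7 were above 0 (median 0.17) and 0 were called. There 1 had an unadjusted p under 0.05, beside 6.19% of all genes. Those comparisons share libraries with the age contrast in controls.

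Among genes of DAB1 turnover, 0 of 6 were called in any comparison. By unadjusted p under 0.05 there was 1 with age in NACET mice, beside 21.1% of all genes. Arih2, a ubiquitin ligase that works with cullin 5, had a log2 change of 0.17 with age in NACET mice (adjusted p = 0.0532, DESeq2 0.0249), at 69.3 to 73.9 CPM in young and 77.6 to 88.0 CPM in old libraries. Cul5, the scaffold of the ligase that degrades active DAB1, had a log2 change of -0.10 with NACET in old mice (adjusted p = 0.363). Among the other LDL receptor family genes, 0 of 12 were called in any comparison. By unadjusted p under 0.05 there were 2 with age in NACET mice, beside 21.1% of all genes. With NACET in young mice there were also 2, beside 4.36% of all genes. Lrp10 had a log2 change of -0.17 with age in NACET mice (adjusted p = 0.0551, DESeq2 0.0361). Lrp4, known from the neuromuscular junction, had a log2 change of -0.17 with NACET in young mice (adjusted p = 1.00).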

How the data were processed

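Retinal polyA RNA of 20 mice was measured, 1 library per mouse. The deposited values are raw read counts per gene: per the study's methods, the authors made TruSeq libraries, aligned single-end reads to mm9 with TopHat 2.1.0 and counted them over exons with HTSeq 0.11.2, without strand. The annotation used is not given in the sources used here. A row that names no gene took at most 0.00218% of gene counts and was left out, while genes of ribosomal RNA were kept. Replicate pairs differed by more than sampling noise (chi-square per degree of freedom 2.52 to 32.2 over 42 pairs).

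Counts were divided by total gene counts (CPM) and, for RPKM, by exon length in the GENCODE annotation of mm9. The quasi-likelihood test of edgeR (4.0.16, under R 4.3.3) followed TMM scaling and filterByExpr. P-values were adjusted by Benjamini-Hochberg over all genes tested, and genes under 0.05 were called. The model was fitted on the groups compared, or on all 20 libraries for the difference between ages. The self-test of the fit was run on simulated data. Log2 changes come from the fit. Intervals are 95% intervals of the fit.

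The members and lists were chosen with earlier results of these data known. Named genes were the 5 members, each listed gene that was called, the 2 genes of smallest p in lists without a call, and the genes most like Reln (5) and each other member (3). Of the amacrine list 11 of 12 genes were found by symbol. Alternatives were DESeq2 1.42.0, other normalization, filters, samples and covariates. Replicate numbers did not pair the samples, since same-numbered samples did not deviate together.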

Additional observations from a re-analysis of the deposited data

Results flagged for a closer look

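Within each group, the highest and the lowest library were compared with their nearest neighbour for the 5 members, and 2 of 20 combinations of member and group stood out. Both concern old control replicate 1. It held 218.2 CPM of Reln, where the other 3 old controls held 180.6 to 185.5 CPM, so that the gap to the nearest library was 0.870 of the whole range of the group. It also held 89.97 CPM of Lrp8, where the others held 74.43 to 76.78 CPM, with a gap of 0.849 of the range. Chance gives about 1 such combination in 20. Old control replicate 1 also had the highest amacrine sum of its group, 1671 CPM, where the others had 1428 to 1477 CPM. Its rod sum was the lowest, 69909 CPM, where the others had 74199 to 84300 CPM. Its sums of horizontal cell, astrocyte and microglial markers lay between those of the others. The part of cell makeup in its Reln and Lrp8 values was not tested. Without this library, the log2 change of Reln with NACET in old mice was 0.21 (edgeR adjusted p = 0.0705), a p that is not independent of the choice of Reln by its low values in old controls, and that of Lrp8 was 0.059.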

How the results depend on the processing

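The signs of the Reln changes with NACET at either age held in every setting run. No setting but DESeq2 called Reln in old mice (0.16, adjusted p = 0.0459). Both comparisons hold the control libraries whose Reln values chose the gene. Neither the steady signs nor this call is therefore independent of the choice. Counts of genes called moved more. With age in controls (234 called, 1 in the pathway lists), DESeq2 called 724 and 7, a fit of all 4 groups 461 and 3, libraries labelled male 69 and 0, libraries with at most 100 Xist counts 72 and 0, and libraries without corneal or lens markers, a setting chosen after seeing the data, 118 and 0. With age in NACET mice (795 called) DESeq2 called 1312. With NACET in old mice (90 called), DESeq2 called 373, no filter 150, the fit of all 4 groups 1, at most 100 Xist counts 15, 668-day libraries 0 and libraries without corneal or lens markers 25. With NACET in young mice (0 called by edgeR) male libraries and those with at most 100 Xist counts gave 1 each. For the difference between ages (0 called by edgeR) DESeq2 called 88 and no filter 49.

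Same-numbered libraries did not deviate together (correlations of -0.14 to 0.12), so the numbers were not taken as pairs. With the replicate block the calls of Mylip (adjusted p = 0.0774) and Rap1a (adjusted p = 0.0686) with age in NACET mice were lost, 422 genes were called with age in NACET mice, 17 with NACET in old mice and 6 with NACET in young mice, and Apoe with NACET in young mice stood at 0.015.

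Signs turned near 0. In 668-day libraries the NACET change in old mice was -0.024 for Dab1 and -0.012 for Apoe. For Apoe with NACET in young mice it was 0.00075 with RLE factors, 0.0013 with DESeq2, 0.0053 without filter, 0.0029 with a filter at 1 CPM, 0.0034 in the fit of all 4 groups, 0.12 in male libraries and in those with at most 100 Xist counts, 0.0024 in 119-day libraries, 0.0012 with age as covariate and 0.0053 without corneal or lens markers. In 119-day libraries, with age as covariate and without corneal or lens markers, Vldlr stood at 0.029, 0.029 and 0.0065, and in the first and second of these Lrp8 stood at 0.00076 and 0.00032. For the difference between ages Apoe stood at -0.0010 without filter, -0.0015 with 1 CPM, -0.12 in libraries labelled male and -0.10 with at most 100 Xist counts. Without corneal or lens markers Reln and Vldlr stood at 0.043 and -0.066 with age in NACET mice, and Vldlr at -0.074 for the difference between ages. The causes were not tested.

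When each library was left out in turn, 113 (without old control replicate 3) to 414 (without young control replicate 1) genes were called with age in controls, 478 (without old NACET replicate 2) to 922 with age in NACET mice, 8 (without old control replicate 2) to 110 with NACET in old mice, 0 to 8 (without young control replicate 4) with NACET in young mice and 0 to 77 (without young NACET replicate 1) for the difference between ages. In the pathway lists, 0 to 3 were called with age in controls and 3 to 7 with age in NACET mice. Apoe ranged from -0.046 to 0.032 with NACET in old mice, from -0.067 to 0.16 in young mice and from -0.16 to 0.075 for the difference. Dab1 ranged from -0.010 to 0.080 with age in NACET mice and from -0.072 to 0.040 for the difference. Vldlr ranged from -0.039 to 0.057 and from -0.046 to 0.053 in these, and Lrp8 from -0.0092 to 0.059 with NACET in old mice. Each member had at least 633 counts per library, and changes smaller than the intervals given could not be told from 0 with 4 to 6 mice per group.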
